A study of Homo sapiens with 33 samples.

Results

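SDAD1 tiles are synthetic oligonucleotides named after the human SDAD1 mRNA that were carried in a pool built to be tested against PUM2. They were chosen by name alone, as every line of the PUM2-pool count table whose tile name before the colon is SDAD1. This gave 39 tiles, numbered 1 to 39, of the 1599 tiles and 23 source RNAs in that pool, and 858 of its 35178 lines, since each tile was carried on 22 barcodes. The pool was transfected into HEK293T cells, an established human embryonic kidney line, with no protein overexpressed, so the antibody acted on the PUM2 that the cells make themselves. Harvest was 48 hours after transfection, followed by crosslinking in 0.1% formaldehyde (10 minutes). The groups compared are 3 libraries of cDNA from the anti-PUM2 immunoprecipitate (IP) and 3 from Input, the same material without precipitation, and they differ in nothing else that the labels state. No precipitation with a control antibody was among the groups, so recovery that any precipitation would give cannot be told apart from recovery with PUM2. Nothing in the labels says that the 3 libraries of a group stem from separate cultures, and the p-values therefore reflect only how these libraries vary, possibly for technical reasons.

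PUM2 is a Pumilio-family protein. Pumilio proteins bind single-stranded RNA at short motifs that begin with UGUA, often in the untranslated region that follows the coding sequence, and are known for lowering the stability and translation of the mRNAs they bind. SDAD1 encodes an SDA1 domain protein of the nucleolus, whose yeast counterpart takes part in making the large ribosomal subunit. Tile sequences, their positions in the SDAD1 mRNA and any overlap between neighbouring tiles were not used here, so tile numbers are read only as an order of names.

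The Input libraries held 29433144 to 35092298 reads and the IP libraries 15986799 to 17727926. SDAD1 tiles took 2.24%, 2.24% and 2.30% of the reads in Input A, B and C and 2.24%, 2.27% and 2.32% in IP A, B and C. The RNA's total share was 2.26% ± 0.0327 in Input and 2.28% ± 0.0408 in the IP (SD, n = 3 each), and the libraries of the groups overlapped. Single barcodes were lost far more often in the IP. Of the 858 SDAD1 barcodes, 40, 43 and 44 had no read in Input A, B and C, against 404, 377 and 341 in IP A, B and C (39.7% to 47.1%, where the whole pool had 46.8% to 51.5%). Reads were amplified by PCR and no molecular identifier is named, so a read count is not a count of RNA molecules. The standard errors of fold changes come from a fit that shares the spread between libraries over the tiles of the pool. They are therefore not a tile's own spread between its libraries.

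The SDAD1 tiles that passed as higher in the IP (adjusted p under 0.05 in edgeR) lay in 2 places along the tile names. They were an unbroken run of 5 tiles, SDAD1:31 to SDAD1:35, each 3.15-fold to 4.70-fold higher, and the single tile SDAD1:21, 2.07-fold higher. SDAD1:36, on few reads, and SDAD1:38 had fitted changes of 6.09-fold and 2.02-fold but missed this threshold. All 39 tiles passed the filter on low counts. Of these, 6 were called higher (adjusted p under 0.05 in edgeR's quasi-likelihood test over all 1563 tested tiles of the pool), 1 was called lower, SDAD1:15, and 32 did not pass. The 15.4% of SDAD1 tiles called higher is near the 14.1% of all tested tiles, and the 2.56% called lower is near the pool's 4.16%, so the number of calls does not set SDAD1 apart. The median log2 fold change was -0.09 over the 39 tiles and -0.06 over all tested tiles. When libraries were scaled by size alone, the median of all tested tiles moved by -0.23, and the SDAD1 calls became 6 higher and 5 lower. The calls over the whole pool then went from 220 to 198 higher and from 65 to 227 lower.

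Within the run, SDAD1:31 stood at 148, 136 and 142 CPM in Input A, B and C and at 508, 501 and 795 CPM in IP A, B and C (CPM are reads scaled to a common library size with TMM factors). All 3 IP values lay above 3 times the highest Input value, and IP C was the highest. The log2 fold change was 2.08 ± 0.24 (SE, n = 3 against 3; adjusted p = 0.000366 in edgeR), or 4.23-fold. SDAD1:32 was the scarcest of the run in Input, at 125, 105 and 85.7 CPM, and stood at 545, 498 and 441 CPM in the IP. Its lowest IP library was above 3 times its highest Input library (2.23 ± 0.23, 4.70-fold, adjusted p = 0.000199 in edgeR).

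SDAD1:33, the most abundant of the run in Input, had 414, 420 and 336 CPM there and 1247, 1192 and 1244 CPM in the IP. Its IP libraries were the closest together of the run, with an SD of 30.8 CPM around 1228 CPM, and its change was 1.65 ± 0.14 (3.15-fold, adjusted p = 6.34e-05 in edgeR). SDAD1:34 went from 362, 338 and 360 CPM to 1373, 1597 and 1142 CPM, a change of 1.96 ± 0.16 (3.88-fold) with the smallest adjusted p of the SDAD1 tiles, 4.50e-05 in edgeR. The last tile of the run, SDAD1:35, had 220, 219 and 140 CPM in Input and the widest spread in the IP, at 1158, 642 and 880 CPM. Even its lowest IP library was well above its highest Input library, and the change was 2.21 ± 0.28 (4.62-fold, adjusted p = 0.000686 in edgeR).

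Neighbours in the order of the run's 5 changes differed by less than 2 standard errors. From highest to lowest the order was SDAD1:32, 35, 31, 34 and 33, and each step in this order was 0.02 to 0.30 on the log2 scale, with a standard error of the difference of 0.21 to 0.37 (taking the tiles' errors as independent). The ends of the order, SDAD1:32 and SDAD1:33, differed by 0.58 ± 0.27. SDAD1:33 and the isolated SDAD1:21 differed by 0.61 ± 0.23.

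The run can also be read without any scaling between libraries, as a share of the SDAD1 reads in each library. Tiles 31 to 35 together took 6.11%, 5.82% and 5.13% of SDAD1 reads in Input A, B and C and 19.8%, 17.7% and 18.2% in IP A, B and C. The 29 tiles numbered 1 to 30 other than 21 took 82.2% to 86.2% of SDAD1 reads in Input and 59.2% to 67.8% in the IP. Shares of 1 total depend on each other, so a rise in other SDAD1 tiles lowers the share of these 29 by itself. These shares describe a run that was picked out from the same values, so they carry no test of their own. The start of the run was abrupt. SDAD1:30 had 483, 516 and 499 CPM in Input and 724, 247 and 406 CPM in the IP, so its groups overlapped (-0.12 ± 0.35, adjusted p = 0.852 in edgeR). The log2 ratio of SDAD1:31 to SDAD1:30 reads was -1.71, -1.92 and -1.81 in Input and -0.51, 1.02 and 0.97 in IP A, B and C. IP A, where SDAD1:30 was highest, stood apart from the other IP libraries.

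Most barcodes of the run shared its direction. Counting barcodes with at least 30 reads over the 6 libraries, the mean CPM was higher in the IP for 17 of 21 barcodes of SDAD1:31, 17 of 21 of SDAD1:32, 17 of 20 of SDAD1:33, all 21 of SDAD1:34 and 20 of 22 of SDAD1:35. That is 92 of 105 barcodes, against 240 of 623 over the 29 tiles numbered 1 to 30 other than 21. Barcodes of a tile share the libraries and are not replicates. Since the run was picked out from the same values, this contrast partly follows from that choice and carries no test. A barcode with no IP read counted as not higher. The barcodes read were not the same ones in each IP library. For SDAD1:31, 11, 13 and 12 of 22 barcodes had a read in IP A, B and C, but 3 had one in all 3 IP libraries and 19 in at least 1. SDAD1:34 was the steadiest, with 21, 19 and 18 barcodes read and 16 read in all 3. The barcode of most IP reads held 12.3% to 16.2% of a run tile's IP reads. The barcode of most Input reads, not always the same one, held 8.72% to 15.7% of its Input reads. No tile of the run thus rested on 1 barcode. In a further fit, the barcode with most reads over the 6 libraries was removed from every tile of the pool. It need not be the barcode of most IP reads. All 5 tiles were again called higher.

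The isolated tile SDAD1:21 was also the SDAD1 tile of most Input reads. It stood at 2146, 2009 and 1552 CPM in Input A, B and C and at 4659, 4064 and 3073 CPM in IP A, B and C. The lowest IP library was above the highest Input library, and Input C and IP C were the lowest of their groups. The log2 fold change was 1.05 ± 0.18 (adjusted p = 0.00407 in edgeR), with 20 of 21 barcodes higher in the IP and 19 of 22 read in all 3 IP libraries. In reads it took 10.3%, 9.60% and 7.48% of SDAD1 in Input and 19.1%, 16.3% and 12.4% in the IP. Its neighbours did not share the change. SDAD1:20 had 789 to 958 CPM in Input and 589 to 905 CPM in the IP (-0.09 ± 0.19, adjusted p = 0.794 in edgeR), and SDAD1:22 had 1351 to 1513 CPM in Input and 1148 to 1671 CPM in the IP (-0.11 ± 0.16, adjusted p = 0.700 in edgeR). Both differences lay within the spread between libraries. The call of SDAD1:21 held in 14 of 16 alternative fits. It was lost when both libraries lettered A or both lettered B were left out (adjusted p = 0.0510 and 0.0889 in edgeR), with the log2 fold change still at 1.00 and 1.06. Calls higher over the whole pool also fell there, from 220 to 170 and 158.

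The 4 tiles after the run had larger standard errors, 0.30 to 1.29 against 0.14 to 0.28 in the run, and none passed. SDAD1:36 had the largest fitted change of the 39, but it was scarce: 89, 60 and 117 reads in Input A, B and C and 186, 298 and 235 reads in IP A, B and C. On the CPM scale this is 2.80, 1.77 and 3.01 against 11.6, 20.6 and 14.1, and the groups did not overlap. The log2 fold change of 2.61 ± 1.14 missed the threshold (adjusted p = 0.169 in edgeR, 0.0440 to 0.519 when 1 library was left out, with the lowest of these without IP C). The SDs of its log2 CPM were 0.40 in Input and 0.42 in the IP, so its standard error was not its own spread between libraries. Its reads were also spread differently from those of the other tiles. A barcode that was read had 12.8 IP reads on average in SDAD1:36 and 6.33 in SDAD1:37, against 346 to 3131 in the other 37 tiles, and yet 16, 19 and 21 of the 22 SDAD1:36 barcodes were read in IP A, B and C. SDAD1:37 had 93 Input reads and 38 IP reads in all, the fewest of SDAD1, and gave no usable direction (-0.19 ± 1.29, adjusted p = 0.938 in edgeR). In the whole pool 23 of 1563 tested tiles had under 300 Input reads.

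SDAD1:38 and SDAD1:39, named after their values were seen, had enough reads to be compared. SDAD1:38 had 118, 103 and 93.6 CPM in Input and 158, 216 and 264 CPM in the IP, with no overlap between the groups. Its change of 1.02 ± 0.30 (2.02-fold) fell just short of the threshold (adjusted p = 0.0541 in edgeR). Of its 22 barcodes, 12 were higher in the IP, and 6 had no IP read and so counted as not higher. It passed in DESeq2, with RLE size factors, without IP A and without each tile's most read barcode. SDAD1:39 had 162, 169 and 143 CPM in Input and 299, 439 and 94.1 CPM in the IP, where library C fell below all 3 Input values (0.81 ± 0.49, adjusted p = 0.320 in edgeR). It passed when IP C was left out. Whether the run extends to these tiles was therefore not resolved by the 3 libraries.

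Tiles 1 to 30, apart from SDAD1:21, mostly lay near or below their Input level under TMM scaling. Their 29 log2 fold changes ran from -0.77 to 0.56 with a median of -0.25. Scaled by library size alone, 5 of them were called lower (SDAD1:1, 6, 14, 15 and 19). In the main fit none of the 29 was called higher in edgeR, none was above 0 with an unadjusted p under 0.05, and DESeq2 called none higher. When IP A was left out, edgeR called 1 of them higher, SDAD1:26, which had 1019 to 1078 CPM in Input and 1038 to 1471 CPM in the IP over all libraries (0.32 ± 0.15, adjusted p = 0.196 in edgeR). SDAD1:8 had the highest value of the 29 (0.56 ± 0.29, adjusted p = 0.243 in edgeR), at 103, 119 and 137 CPM in Input and 205, 160 and 163 CPM in the IP. Of its 21 barcodes with at least 30 reads, 9 were higher, and 8 had no IP read and so counted as not higher. SDAD1:8 and SDAD1:26 were named after their values were seen.

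SDAD1:15 was the 1 tile called lower. It had 544, 615 and 693 CPM in Input and 403, 361 and 441 CPM in the IP, so each IP library was below each Input library. The log2 fold change was -0.62 ± 0.17 (adjusted p = 0.0375 in edgeR), which leaves 0.650 of the Input level, and 2 of its 22 barcodes were higher in the IP. The call was lost without Input A, B or C (adjusted p = 0.0910, 0.165 and 0.201 in edgeR) and without IP B (0.0545), while the log2 fold change stayed at -0.70, -0.62, -0.53 and -0.55, in this order. The other 4 of the 5 lowest tiles did not pass: SDAD1:27 at -0.77 ± 0.33, SDAD1:14 at -0.71 ± 0.27, SDAD1:11 at -0.60 ± 0.29 and SDAD1:5 at -0.59 ± 0.30 (adjusted p of 0.110 to 0.230 in edgeR). SDAD1:14 also had few barcodes left in the IP, with 3, 5 and 6 of 22 read in IP A, B and C, against 22 in every Input library. DESeq2 called 4 SDAD1 tiles lower, SDAD1:14, 15, 19 and 27, and 167 of the 1569 tiles it tested in the whole pool.

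Counted by overlap alone, 9 SDAD1 tiles had all IP libraries above all Input libraries (SDAD1:8, 21, 31 to 36 and 38) where 19.7% of all tested tiles did, and 9 had all below (SDAD1:1, 2, 5, 6, 10, 14, 15, 19 and 27) where 20.6% did. These counts are again near the pool's. By number, 7 of the 9 tiles that were higher were among the 9 tiles numbered 31 to 39. All 9 that were lower carry numbers of 27 or less, as do most of the 39 tiles. Both cuts were picked after the values were seen, so this arrangement is a description and was not tested. Tiles with less Input tended to have higher fold changes (Pearson's r = -0.38, Spearman's rho = -0.34 over 39 tiles, across tiles of the same libraries and with Input entering both measures, so this is a description only). SDAD1:21, with the most Input of all, went against that tendency.

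Set against the pool, the SDAD1 tiles called higher had changes near the pool's median, in 1 of the longest rows of such tiles. The 220 tiles called higher in the pool had a median log2 fold change of 2.09, and the 6 of SDAD1 one of 2.02. By log2 fold change SDAD1:32 ranked 111, and SDAD1:33 ranked 159, of 1563 tiles. The 220 called tiles formed 121 runs of consecutive numbers within a source RNA, of which 54 were single tiles and 47 were pairs. The longest runs held 5 tiles, and that of SDAD1 was 1 of 3 such runs. The mean log2 fold change over tiles 31 to 35 was 2.03, the 55th highest of 1404 windows of 5 consecutive tiles, whose median was -0.07. These ranks describe the pool and were not tested.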

How the data were processed

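The authors deposited raw read counts per tile and barcode, 1 column per library; per the labels they come from single-end amplicon sequencing of cDNA. The program that assigned reads is not given in the sources used here. The columns carry letters A to C where the labels carry numbers, so columns were placed in groups without pairing; 0 columns were left without a group. Library pairs within a group differed by more than sampling noise (chi-square per degree of freedom of 71.6 to 666).

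Counts were summed over the 22 barcodes of a tile. All tiles of the pool were fitted together in R 4.3.3 with edgeR 4.0.16 (filterByExpr, TMM, robust quasi-likelihood F test, Benjamini-Hochberg adjustment, calls at 0.05). A standard error is the size of the log2 fold change over the root of its F statistic. DESeq2 1.42.0 was an alternative. On simulated data of 1562 tiles for this comparison, 46% of 2-fold and 77% of 4-fold changes were recovered, and 4 of 1362 unchanged tiles were called. The simulation gave both groups the same spread between libraries. In the data, chi-square per degree of freedom was 551 to 666 between IP libraries and 71.6 to 260 between Input libraries. These rates therefore need not hold for the real comparison. Tiles given with values were all called SDAD1 tiles, the neighbours of those called higher, the 5 highest and 5 lowest, and those of most and fewest Input reads; others are marked where named. The members, lists and tests were chosen with earlier results of these data known. SDAD1 was found in the reference list of gene symbols, and no genome was consulted.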

Additional observations from a re-analysis of the deposited data

How the results depend on the processing

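The calls of SDAD1:31 to SDAD1:35 held under every alternative run: other scalings, other filters, DESeq2, the replicate block, each library left out, the most read barcode left out, a minimum log2 fold change of 1 and, added after the data were seen, both libraries of 1 letter left out. Their adjusted p stayed at or below 0.0206. The number of SDAD1 tiles called higher was 5 to 8. That of the whole pool ran from 158 to 292, the minimum log2 fold change aside. The number of SDAD1 tiles called lower, 1, was not stable. It was 5 with library size as the only scaling, 4 in DESeq2, 0 to 3 with 1 library left out, and 0 with the replicate block, without each tile's most read barcode, with a minimum log2 fold change of 1 and without both libraries of letter A, B or C; 1 to 5 tiles below 0 still had an unadjusted p under 0.05 in edgeR wherever 0 were called. Calls lower in the whole pool moved as well, from 65 in the main fit to 227 with library size alone and 167 in DESeq2. They were 12 to 146 with 1 library left out and 79 with the replicate block. Without the most read barcodes they were 58, and without both libraries of 1 letter 13 to 54. The replicate block used the column letters. Input and IP of the same letter had correlations of deviations of -0.04, 0.01 and -0.02 for A, B and C, against -0.04 to 0.07 for unlike letters. Values near 0 cannot settle whether the letters pair the libraries, since noise between libraries could hide a pairing. The block gave 6 tiles higher, and SDAD1:15 had an adjusted p of 0.0716 in edgeR there.

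Uncalled tiles near 0 changed sign without passing. With 1 library left out, SDAD1:20 ran from -0.18 to 0.083, SDAD1:22 from -0.31 to 0.0091 (0.0031 without IP A), SDAD1:30 from -0.60 to 0.18 (0.0034 without IP C) and SDAD1:37 from -0.58 to 0.12. Without both libraries lettered B, SDAD1:20, SDAD1:30 and SDAD1:37 were at 0.030, 0.20 and 0.11, and without both lettered C SDAD1:30 was at 0.0074. Without the most read barcode SDAD1:20 was at 0.019. SDAD1:37 left the test at a mean count of at least 50. Prior counts of 0.5 and 10 moved 1 of 64 mean log2 CPM values by more than its SD. Depth limits SDAD1:36 and SDAD1:37, and the loss of barcodes limits all IP values.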
